A study of Mus musculus with 44 samples.

Results

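The genes examined here are those of the integrated stress response and of amino acid supply, 39 genes chosen by name for their known roles. The choice was made with earlier results of these data known. These genes were read as the probe sets of the Affymetrix Mouse430_2 array that carry a single gene symbol among the 39. Of the 39 genes, 36 had such a probe set, 82 probe sets in all, out of 18193 genes with a single-symbol probe set and 45037 probe sets that are not controls. Eif2s1, Gdf15 and Pycr1 had none and were not analysed here. Each gene was represented by its brightest probe set, and genes whose highest group mean exceeded the median of all values, 6.21 on the log2 scale used, were tested. Of the 36, 34 passed this filter on dim signals, and 11969 genes passed in all. Cebpb and Vldlr stayed below it, with group means from 4.28 to 5.30 and from 4.83 to 5.97.

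The integrated stress response is the route by which cells answer a shortage of amino acids, misfolded protein in the endoplasmic reticulum or other stresses by phosphorylating the translation factor eIF2alpha. Phosphorylation slows protein synthesis as a whole but favours translation of a few messages, above all that of ATF4, a transcription factor that activates genes for amino acid transport and synthesis, tRNA charging and glutathione, and, with CHOP, genes that restore translation or lead to cell death. B cells that become antibody-secreting cells place heavy demands on the endoplasmic reticulum and on amino acid supply.

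The cells were CH12.LX, a mouse B cell lymphoma line, so every sample derives from 1 cell line and not from animals. Untreated cells were taken at 0 h. All other cells were activated at time 0 with LPS, the lipopolysaccharide of a bacterial outer membrane, and received either dimethyl sulfoxide (DMSO, 0.01%), the vehicle, or 10 nM TCDD, a dioxin that activates the aryl hydrocarbon receptor (AhR), and were harvested at 8, 12, 24, 36 or 48 h. The 11 groups hold 4 arrays each, and each of the 4 replicates was treated and harvested on its own day. Untreated cells exist at 0 h only and had no LPS, so a comparison with them mixes LPS, DMSO and hours of culture, which cannot be told apart, and the 5 such comparisons share the same 4 untreated arrays.

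Levels below are log2(signal + 16) after quantile normalization, with a lowest possible value of 4; the added 16 understates the changes of dim genes. Changes are differences of group means on that scale with their standard errors (SE) from limma, n = 4 per group, and a gene is called where the Benjamini-Hochberg adjusted p of that fit, over all 11969 genes, is below 0.05. The spread behind each p-value is that between cultures of a single line handled on separate days. In bulk RNA, fewer cells that express a gene and less RNA per cell cannot be told apart. Median array signals ran from 45.2 to 99.2, replicate arrays correlated with r from 0.949 to 0.980, and 4 arrays stood apart in technical measures: untreated replicate 4 and DMSO 12 h replicate 4 had the highest median signals (99.2 and 87.9), and untreated replicate 3 and DMSO 48 h replicate 2 had 3′ minus 5′ log2 differences of the transferrin receptor control of 3.34 and 3.12, against a median of 1.19. B cell markers such as Cd79a (group means from 10.31 to 11.31) and Cd74 (from 14.21 to 14.77) were high, whereas Pax5 lay between 5.99 and 6.79, near the filter. The 6 measured B cell markers summed to a signal of 48832 to 54491 on the untreated arrays and of 29557 to 40231 on the vehicle arrays, and their part in the changes against untreated cells was not tested. Of 5 measured T cell markers, Cd3d and Cd4 lay below the filter, while Cd8a had group means from 8.62 to 9.38. The 5 summed to a signal of 546.5 to 690.6 on the untreated arrays, of 721.9 to 882.4 in vehicle cells at 8 h and of 431 to 534.4 at 24 h, with no overlap with untreated. At 48 h they summed to 453.7 to 678.1 in vehicle and 655.7 to 879 in TCDD cells, which overlap, and their part in the results was not tested.

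The promoters of 4 members whose values are given array by array below are shown because they hold the core of the C/EBP-ATF response element, the DNA motif that ATF4 binds with a C/EBP partner. Both strands of each 300-base window, from 250 bases before to 50 after the gene's start, were searched for TGATGNAA, and the capitals mark the match, written as it reads on the gene's strand. The sequences are RefSeq's, build GRCm38.p6, and all 4 genes lie on the minus strand: Trib3 at chr2:152344011-152344310, Asns at chr6:7693160-7693459, Fgf21 at chr7:45615441-45615740 and Nupr1 at chr7:126625421-126625720.
Trib3: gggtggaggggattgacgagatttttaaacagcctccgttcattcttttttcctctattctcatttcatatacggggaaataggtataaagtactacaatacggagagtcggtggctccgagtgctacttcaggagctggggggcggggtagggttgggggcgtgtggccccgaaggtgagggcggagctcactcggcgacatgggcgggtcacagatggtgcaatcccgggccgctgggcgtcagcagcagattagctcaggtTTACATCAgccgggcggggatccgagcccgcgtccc
Asns: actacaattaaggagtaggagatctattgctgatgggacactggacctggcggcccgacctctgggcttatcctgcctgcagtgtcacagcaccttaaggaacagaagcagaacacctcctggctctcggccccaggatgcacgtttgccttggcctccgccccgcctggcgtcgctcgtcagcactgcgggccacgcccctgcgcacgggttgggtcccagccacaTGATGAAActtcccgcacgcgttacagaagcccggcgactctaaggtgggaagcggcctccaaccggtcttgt
Fgf21: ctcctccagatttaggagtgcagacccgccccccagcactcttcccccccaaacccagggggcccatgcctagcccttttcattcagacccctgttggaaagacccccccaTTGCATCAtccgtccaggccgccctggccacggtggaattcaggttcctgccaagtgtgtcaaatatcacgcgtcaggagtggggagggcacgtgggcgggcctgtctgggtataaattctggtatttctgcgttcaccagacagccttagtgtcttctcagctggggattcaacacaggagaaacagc
Nupr1: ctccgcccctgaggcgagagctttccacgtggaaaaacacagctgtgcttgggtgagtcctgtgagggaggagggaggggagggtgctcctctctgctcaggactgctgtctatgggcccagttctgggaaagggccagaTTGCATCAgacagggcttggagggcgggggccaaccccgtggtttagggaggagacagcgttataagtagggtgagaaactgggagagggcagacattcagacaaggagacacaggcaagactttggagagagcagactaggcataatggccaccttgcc
Counted from the gene's start, the match begins at base 15 in Trib3, -23 in Asns, -139 in Fgf21 and -110 in Nupr1. Of the 36 members, 32 had a promoter in the table, and 9 of these (28.1%) held the motif, against 4.51% of 27025 genes and 3.97% of 32851 windows of this length. The other 5 were Atf3, Chac1, Slc1a4, Vldlr and Slc7a11, which has 2 matches, on opposite strands. The shorter core bound by AhR with its partner, GCGTG, stood in 22 of the 32 (68.8%), against 35.1% of genes; Eif2ak3 was not among them. The member windows had a median GC content of 60.3%, against 52.7% for all windows, and a match on either strand is a description of the letters and not of binding.

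In vehicle cells the members moved down first and up later. At 8 h 17 of the 34 tested were lower than in untreated cells and 1, Slc7a3, was higher, with a median change of -0.41 against -0.02 over all tested genes, of which 24.6% were called (11.2% higher and 13.4% lower). At 12 h 10 were lower and 2 higher, with 24.8% of all genes called, and the members' median change was -0.24. At 24 h 7 were higher and none of the 34 lower by limma, with 19.8% of all genes called (9.38% higher and 10.4% lower); at an unadjusted p below 0.05 there were 13 higher and 1 lower. At 36 h 25 were higher (31.3% of all genes called, 15.4% higher), and at 48 h 27 were higher (43.9% called, 23.4% higher), with a median change of 1.18 against 0.02 over all genes. Nupr1 and Fgf21 passed the filter only through the groups in which they were high, so their counts at the late times follow from the filter in part. None of these counts is a test of the list.

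**Figure D1:**
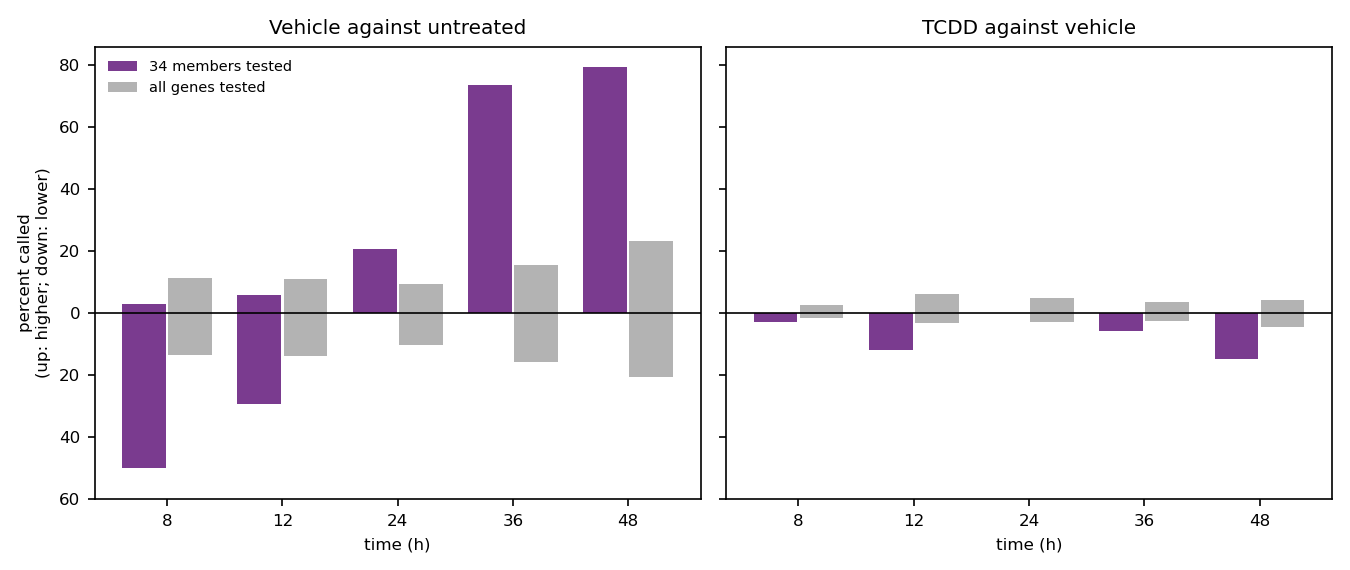
Percent of the 34 tested members (purple) and of all 11969 tested genes (grey) with an adjusted p below 0.05, upward bars for higher and downward bars for lower, by time in hours, in vehicle cells against untreated cells (left) and in TCDD cells against vehicle cells (right). Purple bars point mainly down at 8 and 12 h and only up from 24 h on the left (7, 25 and 27 members), and only down on the right (1, 4, 0, 2 and 5 members).

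The fall at 8 and 12 h rests on the comparison with the 4 untreated arrays; the later rise was also tested within the vehicle cells, without those arrays. Between 8 and 24 h 20 of the 34 were higher and 0 lower (17% of all genes called, 9.15% higher and 7.84% lower), and between 24 and 48 h 28 were higher and 0 lower (36% called, 20.5% higher), and no member was lower at an unadjusted p below 0.05 in either by limma, with median changes of 0.60 and 0.94 against 0.00 and 0.05 over all genes. Both comparisons use the 24 h arrays. Without replicate 3, the count between 8 and 24 h was 13. With the replicate number, which stands for the day, as a block in the fit, the count at 24 h against untreated cells was 12, 11 higher and Phgdh lower (-0.23, adjusted p = 0.0453). The counts against untreated cells at 8 h were 10 without replicate 2 and 8 without replicate 3. Without the 4 arrays standing apart, 12 were called at 8 h and 25 at 48 h.

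**Figure D2:**
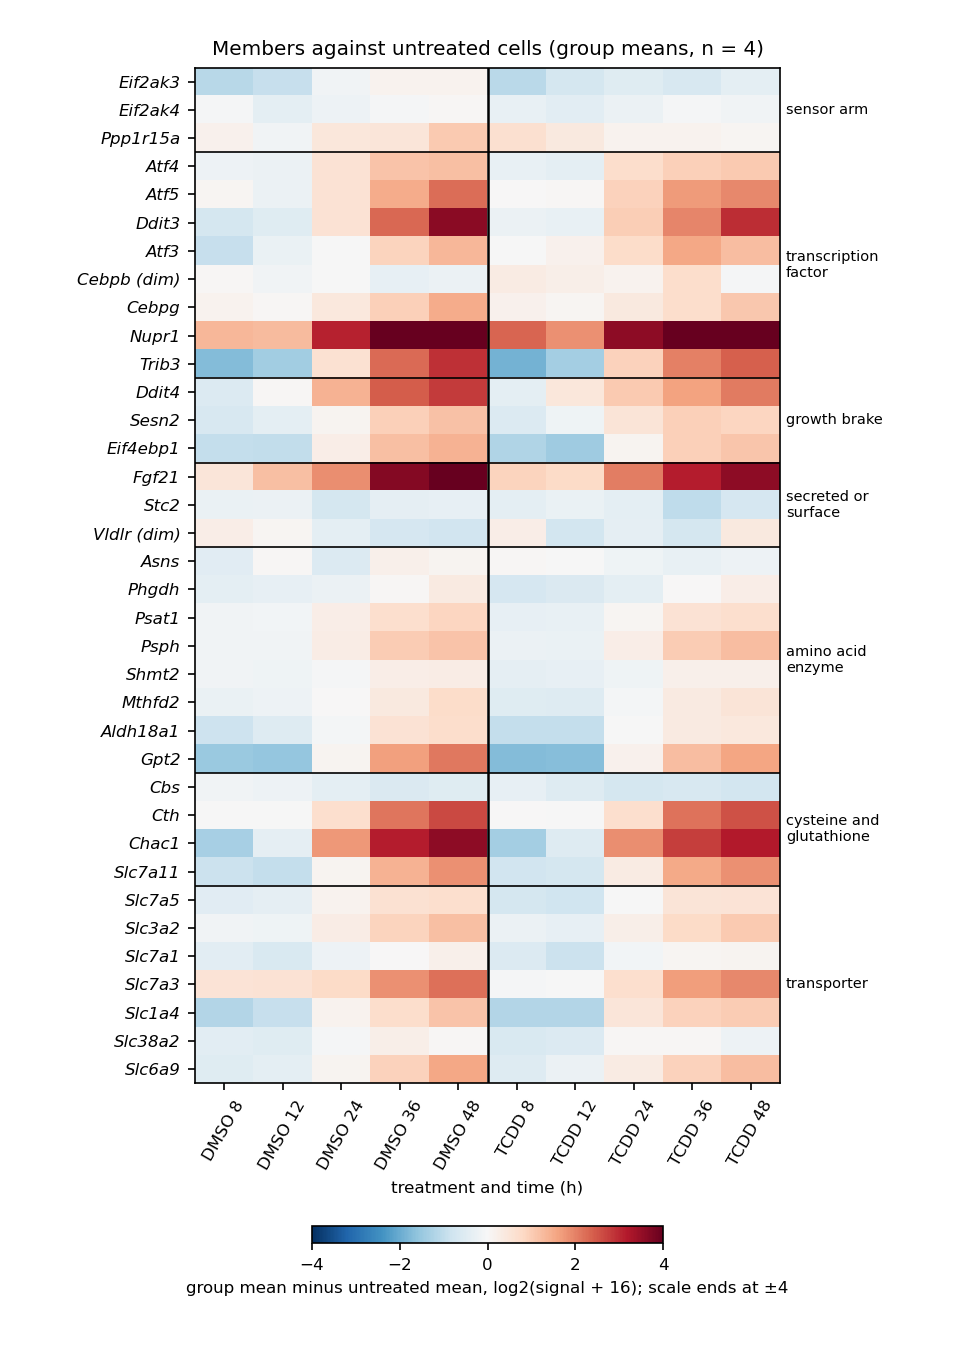
Group mean minus untreated mean on the log2(signal + 16) scale for the 36 members on the array, ordered by role, in columns of DMSO and TCDD cells at 8 to 48 h; colours end at 4 in either direction. Blue cells for Trib3 (-1.74), Gpt2 (-1.50) and Chac1 (-1.34) at 8 h turn red by 48 h, Nupr1 and Fgf21 show the largest measured differences, and Asns, Cbs, Stc2 and Slc38a2 stay near 0 or below.

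The sensor arm holds the kinases of eIF2alpha and the subunit that reverses their effect. Eif2ak3 encodes PERK, the kinase in the endoplasmic reticulum membrane. Its levels were 10.95, 10.85, 10.30 and 10.80 on the untreated arrays, 9.72, 9.69, 9.43 and 9.61 in vehicle cells at 8 h and 9.95, 9.84, 9.63 and 9.80 at 12 h. Levels at 24 h were 10.77, 10.62, 10.24 and 10.70, at 36 h 10.96, 10.91, 10.62 and 10.93, and at 48 h 10.96, 10.66, 10.84 and 10.99. The 8 h and 12 h arrays lie below every untreated array, and the later ones overlap them. The change was -1.11 ± 0.12 at 8 h (adjusted p = 7.34e-09) and -0.92 ± 0.12 at 12 h (adjusted p = 3.37e-07). The 2 other, dimmer probe sets had changes of -0.38 and -0.47 at 8 h, neither called, and the mean of the 3 probe sets changed by -0.65 at 8 h and -0.48 at 12 h, neither called.

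Eif2ak4, which encodes GCN2, the kinase that senses uncharged tRNA, had group means from 8.65 to 9.11 and no call in any of the tests. Ppp1r15a encodes GADD34, which directs a phosphatase to eIF2alpha. Its level ran from 8.31 to 9.48 on the untreated arrays, and the vehicle arrays of 48 h lay between 9.43 and 10.48, a slight overlap, with a rise of 1.06 ± 0.23 (adjusted p = 0.000209).

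All 7 tested members of the transcription factor group were higher at 48 h, and 3 were lower at 8 h. Atf4 itself, already among the bright signals, had levels of 12.76, 12.69, 12.41 and 12.57 on the untreated arrays. They were 12.25, 12.40, 12.57 and 12.39 at 8 h, 12.54, 12.26, 12.54 and 12.21 at 12 h, and 13.25, 12.98, 13.41 and 13.05 at 24 h. At 36 h they were 13.78, 13.70, 13.80 and 13.71 and at 48 h 13.93, 13.74, 13.81 and 13.79. The vehicle arrays from 24 h on lie above the untreated ones, and those at 8 and 12 h overlap them. The changes were -0.20 ± 0.11 at 8 h (adjusted p = 0.212), 0.56 ± 0.11 at 24 h (adjusted p = 0.000328) and 1.21 ± 0.11 at 48 h (adjusted p = 6.99e-11).

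Ddit3 encodes CHOP. Its untreated levels were 8.18, 7.89, 8.56 and 8.42; in vehicle cells they were 7.39, 7.53, 7.67 and 7.65 at 8 h and 8.01, 7.71, 7.49 and 7.83 at 12 h. They were 9.51, 8.33, 9.07 and 8.48 at 24 h, 10.60, 10.35, 11 and 10.33 at 36 h and 11.86, 12.09, 11.88 and 11.67 at 48 h. The 8 h arrays lie below the untreated ones and the 36 and 48 h arrays above them. Ddit3 fell by 0.70 on the log2 scale at 8 h (SE 0.22, adjusted p = 0.015) and rose by 3.61 ± 0.22 at 48 h. The call at 8 h was lost without replicate 3 (-0.65), without replicate 4 (-0.69), without the 4 arrays standing apart (-0.48) and for the mean of both probe sets (-0.40).

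Trib3, the pseudokinase that restrains ATF4 and the kinase AKT, had the largest fall of the members at 8 h. Its untreated levels were 9.12, 8.33, 8.00 and 8.22. Vehicle levels were 6.07, 6.45, 7.16 and 7.06 at 8 h, 7.76, 6.11, 7.52 and 6.66 at 12 h and 9.79, 8.29, 9.42 and 8.64 at 24 h. They reached 10.89, 10.55, 10.86 and 10.46 at 36 h and 11.31, 11.48, 11.35 and 11.17 at 48 h. Groups at 8 and 12 h lie wholly below the untreated arrays and groups at 36 and 48 h wholly above. Changes were -1.74 ± 0.34 at 8 h (adjusted p = 0.000187), -1.41 ± 0.34 at 12 h (adjusted p = 0.00204) and 2.91 ± 0.34 at 48 h; the 12 h call was lost with only the compared arrays in the fit (adjusted p = 0.0565).

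Nupr1, a small stress-induced chromatin protein, had the largest measured difference at 48 h. Its level was 6.01, 5.91, 5.34 and 4.37 on the untreated arrays, below the filter, and 7.24, 6.69, 7.03 and 5.93 in vehicle cells at 8 h. It was 8.48, 5.75, 7.11 and 5.30 at 12 h, 10.25, 7.54, 8.53 and 7.64 at 24 h, 11.53, 10.47, 11.22 and 10.59 at 36 h, and 12.58, 12.60, 12.47 and 12.36 at 48 h. Arrays from 24 h on lie above all untreated ones. At 12 and 24 h replicate 1 is the highest. The rise was 3.08 ± 0.58 at 24 h (adjusted p = 0.00011) and 7.10 ± 0.58 at 48 h, and the second probe set rose by 6.62 at 48 h. Since the untreated signal is not shown to be above background, these sizes are not exact. At 8 h the change of 1.32 was not called in the main fit, and was called with the replicate block (adjusted p = 0.0116).

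Of the other factors, Atf5, translated by the same mechanism as Atf4, rose by 2.23 ± 0.25 at 48 h, and Cebpg, a partner of ATF4, by 1.50 ± 0.13. Atf3, a stress-induced factor, fell by 0.92 on the log2 scale at 8 h (SE 0.33) and rose by 1.33 ± 0.33 at 48 h. Its fall was lost without replicate 2 (-1.15), replicate 3 (-0.68) or replicate 4 (-0.73), and without the 4 arrays standing apart (-1.14 at 8 h, and 0.99 at 48 h).

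**Figure D3:**
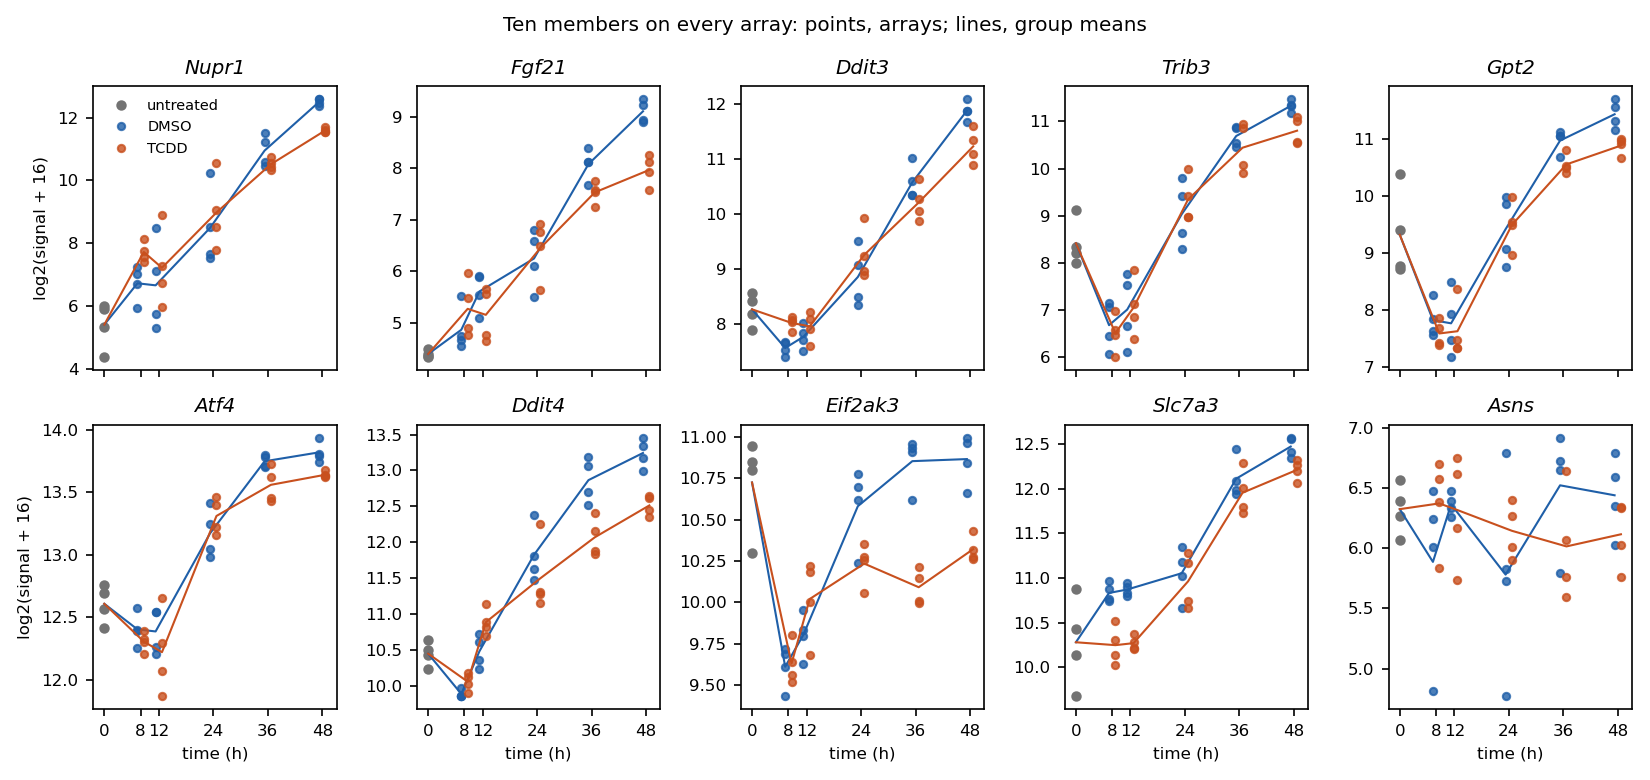
Level on the log2(signal + 16) scale of 10 members on every array (points) with group means (lines) against time in hours, for untreated (grey), DMSO (blue) and TCDD (orange) cells; the vertical scale differs between panels and levels of different genes are not comparable. Trib3, Gpt2 and Eif2ak3 dip at 8 and 12 h, Nupr1 reaches 12.36 to 12.60 in DMSO cells at 48 h, and the orange points for Eif2ak3 and Ddit4 lie below the blue at 36 and 48 h.

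The 3 brakes on growth signalling were lower at 8 h and higher at 48 h. Ddit4 encodes REDD1, an inhibitor of the growth kinase complex mTORC1. Its level was 10.42, 10.23, 10.63 and 10.49 on the untreated arrays, 9.85, 9.86, 9.85 and 9.97 at 8 h and 10.72, 10.35, 10.61 and 10.23 at 12 h. It rose to 12.38, 11.63, 11.80 and 11.48 at 24 h, 13.19, 13.06, 12.69 and 12.51 at 36 h and 13.34, 13.45, 13 and 13.18 at 48 h. The 8 h arrays lie below the untreated arrays, those at 12 h overlap them and the later ones lie above. The changes were -0.56 ± 0.18 at 8 h (adjusted p = 0.0223), 1.38 ± 0.18 at 24 h and 2.80 ± 0.18 at 48 h. Eif4ebp1 encodes 4E-BP1, which holds the cap-binding factor eIF4E; it fell by 0.94 at 8 h (SE 0.17) and rose by 1.40 ± 0.17 at 48 h. Sesn2, which encodes the leucine sensor Sestrin 2, fell by 0.64 at 8 h (SE 0.21) and rose by 1.16 ± 0.21 at 48 h. The falls at 8 h were lost for Ddit4 without replicate 2 (-0.62), 3 (-0.49) or 4 (-0.58), for Sesn2 without replicate 2 (-0.64) or 3 (-0.62), and for both without the 4 arrays standing apart (-0.44 and -0.54). Another probe set of Sesn2 changed by -0.01 at 8 h and 1.62 at 48 h.

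Fgf21 encodes a hormone best known from liver, induced there by amino acid shortage. Its level was 4.50, 4.39, 4.36 and 4.33 on the untreated arrays, close to the lowest value possible, and 4.55, 5.52, 4.74 and 4.66 in vehicle cells at 8 h. It was 5.92, 5.88, 5.10 and 5.54 at 12 h, 6.80, 6.10, 6.59 and 5.50 at 24 h, 8.13, 8.13, 8.39 and 7.68 at 36 h and 9.35, 9.23, 8.94 and 8.90 at 48 h. Each vehicle group lies above the untreated arrays, and each group from 36 h on lies above all earlier ones. The rise was 1.22 ± 0.28 at 12 h (adjusted p = 0.0012) and 4.71 ± 0.28 at 48 h. Neither the untreated nor the 12 h group mean (5.61) exceeds the filter, so these sizes are measured differences from a signal not shown to be above background. At 8 h the change was 0.47 ± 0.28 (adjusted p = 0.251), from a level that left little room below. Stc2, which encodes the secreted glycoprotein stanniocalcin 2, had group means from 5.78 to 6.80 and no call in any test.

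Of the 8 tested enzymes of amino acid and one-carbon synthesis, 4 were lower at 8 h and 7 higher at 48 h. Gpt2 encodes mitochondrial alanine aminotransferase. Its untreated levels were 10.38, 9.39, 8.71 and 8.77. In vehicle cells they were 8.26, 7.56, 7.62 and 7.83 at 8 h, 8.48, 7.16, 7.92 and 7.47 at 12 h and 9.97, 8.75, 9.85 and 9.07 at 24 h. They were 11.05, 11.04, 11.11 and 10.67 at 36 h and 11.56, 11.70, 11.15 and 11.30 at 48 h. The arrays at 8 and 12 h lie below all untreated ones and those at 36 and 48 h above. Its changes were -1.50 ± 0.29 at 8 h (adjusted p = 0.000167), -1.55 ± 0.29 at 12 h (adjusted p = 0.000101) and 2.11 ± 0.29 at 48 h. The 3 other probe sets of Gpt2 changed by -0.53, -0.52 and -1.07 at 8 h and by 1.90, 1.76 and 2.51 at 48 h.

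Aldh18a1, the first enzyme of proline synthesis, fell by 0.81 on the log2 scale at 8 h (SE 0.10, adjusted p = 6.87e-08) and rose by 0.71 ± 0.10 at 48 h. In serine synthesis Psat1 rose by 0.87 ± 0.12 and Psph by 1.14 ± 0.14 at 48 h, and Phgdh, the first enzyme of that route, by 0.35 ± 0.14. The mitochondrial one-carbon enzymes Mthfd2 and Shmt2 rose by 0.73 ± 0.09 and 0.31 ± 0.09. Phgdh and Mthfd2 were also lower at 8 h (-0.40 and -0.26). Leaving out any 1 replicate removed the 8 h call of Mthfd2 (-0.21 to -0.29). Leaving out replicate 2, 3 or 4 removed that of Phgdh (-0.47, -0.43 and -0.32), whose call at 48 h was lost without replicate 2 or 3 (0.29 both times). The 48 h call of Shmt2 was lost without replicate 3 (0.29) and for the mean of its probe sets (0.20). It was also lost without the 4 arrays standing apart (0.27) and with only the arrays compared (0.31).

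Asns, the asparagine synthetase gene and a textbook target of ATF4, was not called in any comparison. Its level was 6.39, 6.07, 6.27 and 6.56 on the untreated arrays, 4.81, 6.01, 6.48 and 6.24 at 8 h and 6.33, 6.39, 6.26 and 6.47 at 12 h. It was 5.73, 5.83, 4.77 and 6.79 at 24 h, 6.73, 5.79, 6.92 and 6.65 at 36 h and 6.79, 6.03, 6.35 and 6.59 at 48 h. All vehicle groups overlap the untreated arrays. The values straddle the filter of 6.21, and the other single-symbol probe set averaged 4.40 over all arrays, near the floor of 4. The missing call therefore does not show that the transcript did not change; at 48 h the change was 0.12 ± 0.32 (adjusted p = 0.806). The motif printed above for Asns stands in a promoter whose probe sets here carry little signal.

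Among the cysteine and glutathione genes, Chac1, Cth and Slc7a11 were higher at 48 h and Cbs was not. Cth encodes cystathionine gamma-lyase, the last step from methionine to cysteine. It changed by -0.01 ± 0.28 at 8 h and rose by 2.64 ± 0.28 at 48 h, or 6.22-fold. Cbs, the preceding step, changed by -0.48 ± 0.27 (adjusted p = 0.155) and was called lower with the replicate block (adjusted p = 0.0245). Chac1, which breaks down glutathione, fell by 1.34 at 8 h (SE 0.32), where its call was lost without the 4 arrays standing apart (-1.03), and rose by 1.75 ± 0.32 at 24 h and 3.59 ± 0.32 at 48 h. Slc7a11, the cystine importer xCT, fell by 0.85 at 8 h (SE 0.31) and rose by 1.84 ± 0.31 at 48 h. Its fall was lost without replicate 1 (-0.80), 2 (-0.69) or 3 (-0.84).

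The transporters split. At 48 h 5 of the 7 were higher: Slc7a3 by 2.19 ± 0.17, the glycine carrier Slc6a9 by 1.55 ± 0.20, Slc3a2, the heavy chain shared by LAT1 and xCT, by 1.19 ± 0.13, the neutral amino acid carrier Slc1a4 by 1.15 ± 0.18 and Slc7a5, which encodes LAT1, by 0.69 ± 0.12. Slc7a1 (0.20 ± 0.11, adjusted p = 0.13) and Slc38a2 (0.05 ± 0.14, adjusted p = 0.816) were not called. At 8 h Slc1a4 fell by 1.17 (SE 0.18), Slc7a5 by 0.46, Slc38a2 by 0.44 and Slc7a1 by 0.42. Slc6a9 (-0.48) was not called in the main fit, and was called with the replicate block (adjusted p = 0.0348). The 8 h calls were lost without replicate 3 for Slc7a5 (-0.41), without replicate 2 or 3 for Slc38a2 (-0.42 and -0.43) and without replicate 1 for Slc7a1 (-0.36). Those of Slc38a2 and Slc7a1 were also lost for the mean of each gene's probe sets (-0.22 and -0.15) and with only the arrays compared.

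Slc7a3 encodes the cationic amino acid carrier CAT3 and was the only member called higher at 8 h in the main fit. Its level was 10.87, 10.43, 9.68 and 10.14 on the untreated arrays, 10.96, 10.87, 10.76 and 10.74 at 8 h and 10.84, 10.80, 10.90 and 10.94 at 12 h. It was 11.18, 10.67, 11.35 and 11.02 at 24 h, 11.94, 12.09, 12.44 and 11.98 at 36 h and 12.57, 12.56, 12.41 and 12.34 at 48 h. The vehicle arrays from 8 to 24 h overlap untreated replicate 1 and those at 36 and 48 h lie above all 4. The rise at 8 h was 0.55 ± 0.17 (adjusted p = 0.013). It was lost without replicate 2 (0.59), 3 (0.38) or 4 (0.54) and without the 4 arrays standing apart (0.18), which include the 2 lowest untreated values.

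TCDD lowered 9 different members at 1 time or more in the 5 comparisons with vehicle at the same time. It raised none of the 34 in any of them (adjusted p below 0.05, limma without a block for the day). At 8 h 1 member was lower, with 4.14% of all genes called (2.73% higher and 1.41% lower). At 12 h 4 were lower (9.22% called, 6.07% higher and 3.15% lower), and at 24 h 0 were called by limma (7.59% of all genes called, 4.8% higher and 2.79% lower), with 1 higher and 1 lower at an unadjusted p below 0.05. At 36 h 2 were lower (5.91% called, 3.5% higher and 2.41% lower) and at 48 h 5 were lower (8.85% called, 4.3% higher and 4.55% lower). At 48 h the median change of the members was -0.27 against -0.02 over all genes, and 33 of the 34 had a change below 0, Psph being the exception, against 52.5% of all genes. Without the 4 arrays standing apart, 32 of the 34 were below 0, with a median of -0.23. Of the members 2.94% were called at 8 h, 11.8% at 12 h, 5.88% at 36 h and 14.7% at 48 h. The shares called in either direction at 8, 12 and 36 h lie near those of all genes, and that at 48 h rests on 5 members. At an unadjusted p below 0.05, 2 members were higher at 8 h, 2 at 12 h, 1 at 24 h and 0 at 36 and 48 h. Single replicates moved the counts: without replicate 2, 3 or 4 there were 0 at 8 h and 1, 2 and 0 at 12 h, without replicate 3 there was 1 at 24 h, and without replicate 2 there was 1 at 36 h. At 48 h 3 were called without replicate 1, 3 or 4 and 1 without replicate 2. Each of the 12 calls had the TCDD array lower on all 4 days, and each was lost in at least 1 of the alternative settings.

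With the replicate block the counts were 3 at 8 h and 2 at 24 h. It added Atf3, higher at 8 h (0.90, adjusted p = 0.0165) and 24 h (0.75, adjusted p = 0.0391), Phgdh, lower at 8 h (-0.28, adjusted p = 0.0387), and Eif2ak3, lower at 24 h (-0.35, adjusted p = 0.0124). For Atf3 the TCDD array was higher on all 4 days at both times. At 48 h it added Ddit3 (-0.65, adjusted p = 0.0326) and Aldh18a1 (-0.28, adjusted p = 0.0432).

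The myeloid markers did not all move alike with the treatment. The 6 markers summed to a signal of 1593 to 2443 on the TCDD arrays and of 637 to 1095 on the vehicle arrays, with no overlap. Csf1r, with the highest group mean of the 6 (10.64), was higher by 1.58 to 1.88 at the 5 times. Adgre1 was higher by 0.70 to 0.94 from 12 h on (0.61 at 8 h, adjusted p = 0.0922). Cd14 and Mpo, also tested, were dim, with group means from 5.61 to 6.62 and from 4.98 to 6.49. At 48 h 2 of the 4 tested markers were called higher and 1 lower. Lyz2 and Itgam lay below the filter in every group. The same 6 summed to 730 to 908 on the untreated arrays. Their part in the TCDD results was not tested. B cell markers summed to 31800 to 40924 on the TCDD arrays, overlapping the vehicle arrays.

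The calls at 8 and 12 h were Slc7a3, Slc7a5, Aldh18a1 and Mthfd2, 2 of the 7 transporters and 2 of the 8 enzymes; an F test in limma for a difference between the times called none of these 4 (adjusted p from 0.207 to 0.722), so their effects are not shown to differ between times. Slc7a3 levels under TCDD were 10.51, 10.31, 10.03 and 10.14 at 8 h and 10.28, 10.21, 10.22 and 10.38 at 12 h, all below the vehicle levels given above. They were 11.28, 10.74, 11.16 and 10.66 at 24 h, 11.73, 11.79, 12.28 and 12.01 at 36 h and 12.26, 12.06, 12.32 and 12.19 at 48 h, and of these later groups those at 48 h do not overlap the vehicle arrays. TCDD lowered Slc7a3 by 0.58 at 8 h (SE 0.17, adjusted p = 0.0357) and by 0.60 at 12 h (SE 0.17, adjusted p = 0.0166), and the change at 24 h was -0.09 ± 0.17. The 8 h call was lost without replicate 2 (-0.59), 3 (-0.54) or 4 (-0.58), and the 12 h call without replicate 2 (-0.60) or 4 (-0.61).

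At 12 h TCDD also lowered Slc7a5 (-0.44 ± 0.12, adjusted p = 0.0147), Aldh18a1 (-0.43 ± 0.10, adjusted p = 0.00394) and Mthfd2 (-0.29 ± 0.09, adjusted p = 0.0441), with no overlap of the arrays. None of the 3 was called with only the compared arrays in the fit. The other 4 probe sets of Aldh18a1 changed by -0.55 to 0.09 and were not called. Calls were lost without replicate 4 for Aldh18a1 (-0.35), without replicate 2, 3 or 4 for Slc7a5 (-0.43, -0.42 and -0.40) and for Mthfd2 (-0.32, -0.24 and -0.23), and without the 4 arrays standing apart for Mthfd2 (-0.24).

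The calls at 36 and 48 h were Eif2ak3, Ddit4, Fgf21, Ppp1r15a and Cebpg. Eif2ak3 levels under TCDD were 9.64, 9.52, 9.80 and 9.56 at 8 h, 10.18, 10.22, 9.68 and 10.00 at 12 h and 10.27, 10.25, 10.06 and 10.35 at 24 h. They were 10.15, 10.22, 10.00 and 10.01 at 36 h and 10.26, 10.43, 10.28 and 10.32 at 48 h. The 8 h groups of both treatments overlap, and at 36 and 48 h each TCDD array lies below each vehicle array. The change was 0.02 ± 0.12 at 8 h, -0.76 ± 0.12 at 36 h (adjusted p = 4.9e-05) and -0.54 ± 0.12 at 48 h (adjusted p = 0.00293). This rests on the brightest probe set: the 2 dim ones changed by 0.00 and -0.43 at 36 h and by -0.03 and -0.07 at 48 h, and the mean of the 3 was not called (-0.40 and -0.21). The 48 h call was also lost without replicate 1 (-0.49) or 4 (-0.50).

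Ddit4 levels under TCDD were 10.03, 10.12, 9.90 and 10.18 at 8 h, 11.14, 10.69, 10.82 and 10.88 at 12 h and 12.25, 11.15, 11.31 and 11.27 at 24 h. They were 12.40, 11.84, 12.15 and 11.88 at 36 h and 12.64, 12.34, 12.45 and 12.61 at 48 h. The TCDD arrays at 36 and 48 h lie below all vehicle arrays of the same time. TCDD lowered Ddit4 by 0.80 at 36 h (SE 0.18, adjusted p = 0.00495) and by 0.73 at 48 h (SE 0.18, adjusted p = 0.00773), leaving it above the untreated level. The calls were lost without replicate 2 (-0.66 and -0.62) and, at 48 h, without replicate 3 (-0.79).

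Fgf21 levels under TCDD were 4.90, 5.48, 5.96 and 4.76 at 8 h, 5.65, 4.64, 4.76 and 5.56 at 12 h and 6.76, 6.92, 6.49 and 5.64 at 24 h. They were 7.76, 7.59, 7.54 and 7.25 at 36 h and 8.25, 8.13, 7.92 and 7.57 at 48 h. The 48 h TCDD arrays lie below all vehicle arrays of that time, and at the earlier times the groups overlap. TCDD lowered Fgf21 by 1.14 at 48 h (SE 0.28, adjusted p = 0.00681), the largest called fall of a member under TCDD. The call was lost without replicate 2 (-1.14) and with a pseudocount of 1 (-1.19).

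Ppp1r15a, which ran from 9.43 to 10.48 in vehicle cells at 48 h, ran from 8.71 to 8.99 with TCDD, a fall of 0.98 (SE 0.23, adjusted p = 0.00355) that was lost without replicate 2 (-0.80). Cebpg ran from 11.24 to 11.71 in vehicle cells and from 11.01 to 11.07 with TCDD at that time. Its fall of 0.41 (SE 0.13, adjusted p = 0.0483) lost its call without any 1 replicate (-0.31 to -0.49). Of the other settings run for single genes, the replicate block kept it. Without replicate 2, whose DMSO 48 h array is among those standing apart, 1 member in all was called at 48 h, Eif2ak3. Without the 4 arrays standing apart 4 members were.

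Nupr1, Ddit3, Trib3, Gpt2 and Atf4 were not called under TCDD at any time. At 48 h their TCDD levels were 11.60, 11.54, 11.69 and 11.55 for Nupr1, 10.88, 11.08, 11.59 and 11.35 for Ddit3 and 10.56, 10.53, 11.02 and 11.10 for Trib3. They were 10.96, 10.99, 10.65 and 10.91 for Gpt2 and 13.62, 13.64, 13.68 and 13.63 for Atf4. For these 5 genes the TCDD and vehicle arrays at 48 h do not overlap. The share of all genes without overlap was not counted, so this separation adds nothing to the missing calls. The changes were -0.91 ± 0.58 (adjusted p = 0.409), -0.65 ± 0.22 (adjusted p = 0.0552), -0.53 ± 0.34 (adjusted p = 0.429), -0.55 ± 0.29 (adjusted p = 0.299) and -0.18 ± 0.11 (adjusted p = 0.414), in the same order. Cth (-0.10 ± 0.28) and Slc7a11 (-0.02 ± 0.31) were close to 0 at that time. Asns under TCDD had group means from 6.02 to 6.37.

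**Figure D4:**
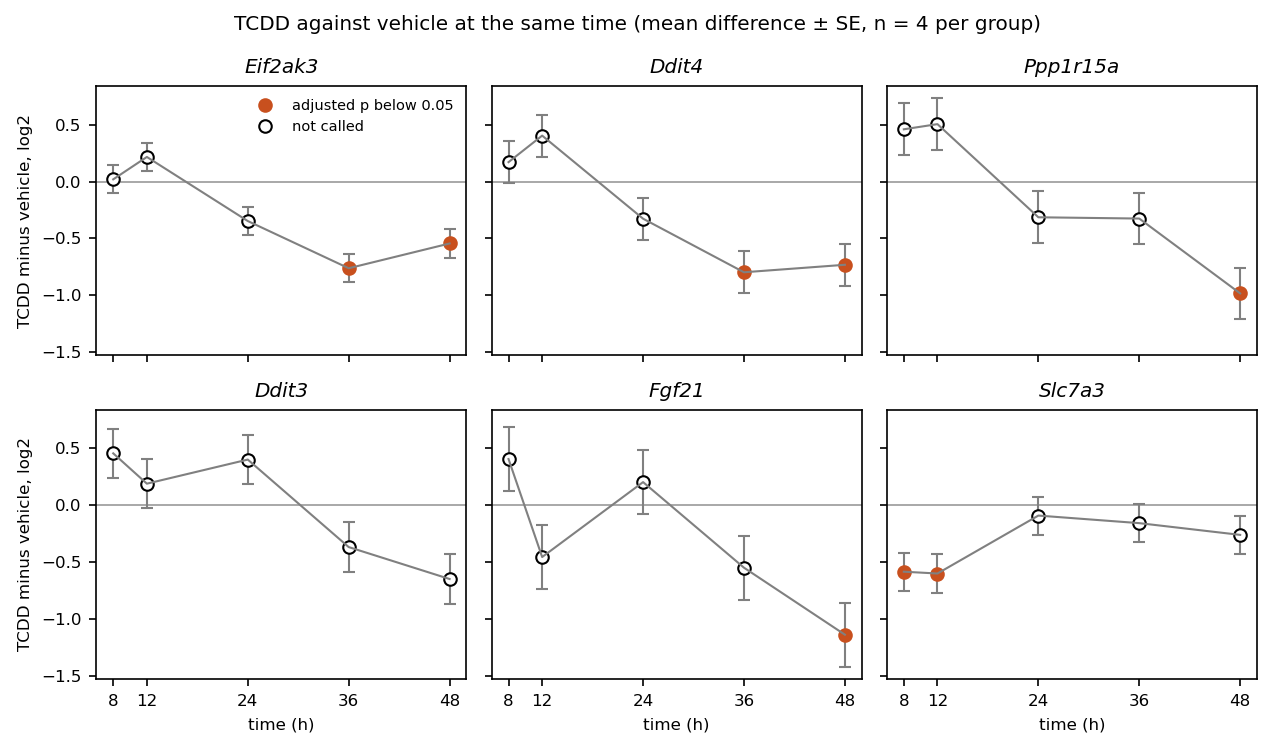
Mean difference of TCDD from vehicle cells at the same time, log2, with SE bars and n = 4 per group, for the 5 members whose TCDD effect differed between times and for Slc7a3; filled points have an adjusted p below 0.05. Eif2ak3, Ddit4 and Ppp1r15a start at 0.02, 0.17 and 0.46 at 8 h and lie at -0.54, -0.73 and -0.98 at 48 h, whereas Slc7a3 is lowest at 8 and 12 h (-0.58 and -0.60).

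Whether the TCDD effect itself differed between the 5 times was tested by an F test of 4 interaction contrasts, in which 6.99% of all genes were called. Of the members 5 were: Eif2ak3 (adjusted p = 0.000749), Ddit4 (0.00307), Ppp1r15a (0.00601), Ddit3 (0.0397) and Fgf21 (0.0484), adjusted as before. In Ddit3 the difference went from 0.46 at 8 h (adjusted p = 0.329, limma) to -0.65 at 48 h, and neither was called in the main fit. The groups do not overlap at either time, but the share of all genes without overlap was not counted. When each gene's probe sets were averaged, the calls were lost for Ddit3 (adjusted p = 0.841), Eif2ak3 (0.577) and Fgf21 (0.0503), so those of Ddit3 and Eif2ak3 rest on the brightest probe set. Calls were lost without replicate 4 for Eif2ak3 (adjusted p = 0.0685), without replicate 2, 3 or 4 for Ddit4 (0.174, 0.051 and 0.062), without replicate 2 or 3 for Ppp1r15a (0.148 and 0.0698) and without any 1 replicate for Ddit3 (0.0731 to 0.48) and Fgf21 (0.0537 to 0.314). Without replicate 1 the test called 3 members, and without replicate 2, 3 or 4 it called 1 each time. The F test call of Fgf21 was also lost with a pseudocount of 1 (adjusted p = 0.145), without the filter (0.0809) and with only the arrays compared (0.0647). Its group means at 8 and 12 h lay below the filter in both treatments, from 4.87 to 5.61. At 8 h they were 4.87 with vehicle and 5.27 with TCDD, and at 12 h 5.61 and 5.16. Room for a fall was limited there, and the part of the floor in the difference between times was not tested.

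Other genes of the pathway were read from 4 lists. Of all tested genes, 24.6% were called in vehicle cells at 8 h and 43.9% at 48 h (23.4% higher and 20.5% lower). Under TCDD at 48 h 8.85% were called (4.3% higher and 4.55% lower). Of 13 tested further targets of ATF4 or CHOP, 3 were lower at 8 h and none higher, and 8 were higher and 1 lower at 48 h, led by the vessel growth factor Vegfa (3.66 ± 0.40), mitochondrial PEP carboxykinase Pck2 (2.65 ± 0.20) and the peptide hormone Adm2 (2.53 ± 0.31). Vegfa had group means from 4.49 to 8.72 and passed the filter only through the groups in which it was high, so its size is not exact. Under TCDD at 48 h Bbc3, which encodes the death factor PUMA (-0.70 ± 0.19), and Map1lc3b, of autophagy (-0.55 ± 0.09), were lower. The other 3 lists also held genes called in both directions. Of 14 eIF2 kinases and subunits of eIF2 and eIF2B and their partners, 5 rose and 4 fell in vehicle cells at 48 h, led by Ppp1r15b (-0.92 ± 0.10), which encodes the constitutive counterpart of GADD34, Eif2b1 (-0.88 ± 0.11) and Gcn1, the partner of GCN2 (-0.76 ± 0.17).

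Of 14 tested further amino acid transporters, 3 rose and 4 fell at 48 h, near the shares of all genes (23.4% higher and 20.5% lower). They were led by Slc25a15 (-0.65 ± 0.15), Slc38a7 (0.60 ± 0.19) and Slc7a7 (0.53 ± 0.10), and TCDD raised Slc7a6 at that time (0.32 ± 0.08). Of 15 further enzymes, 5 rose and 4 fell, led by the mitochondrial folate enzyme Aldh1l2 (1.81 ± 0.24), glutamine synthetase Glul (-1.12 ± 0.21) and argininosuccinate synthetase Ass1 (-0.97 ± 0.25). The lowest group means of Aldh1l2 (5.95) and Ass1 (6.00) lay below the filter, so the sizes of these 2 are not exact. At 48 h TCDD lowered Aldh1l2 (-0.78 ± 0.24) and raised Gldc, of glycine breakdown (1.14 ± 0.17). These lists had median changes at 48 h in vehicle cells of 0.54 for the targets, 0.01 for the eIF2 genes, -0.13 for the transporters and 0.09 for the enzymes, against 0.02 over all genes and 1.18 for the members.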

How the data were processed

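RNA of 44 CH12.LX cultures was hybridised to 1 Affymetrix Mouse430_2 array each. What the authors deposited is a linear signal intensity per probe set; the submitters' processing notes name GCOS 1.0. Without its lowest and highest 2% every array averages 500.0, so arrays had been scaled before deposit; any other step is not given in the sources used here. Detection calls were not used.

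The values were quantile normalized and turned into log2(value + 16). Of 45101 probe sets, 64 controls were left out; 34945 of the others have 1 gene symbol, 932 several and 9160 none in the annotation table. Matching gene identifiers to the RefSeq table of GRCm38.p6 found 34741 symbols and changed 0. Each gene took its brightest single-symbol probe set, and genes were kept where the highest group mean exceeded 6.21. limma 3.58.1 in R 4.3.3 fitted 11 group means over all arrays, with eBayes, and two-sided p-values were adjusted by Benjamini-Hochberg over 11969 genes. Groups came from treatment and time in the labels. The number of arrays limits the precision.

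Per the series' design text each replicate was handled on a separate day, so replicate numbers pair the arrays. Deviations from group means correlated with a median r of 0.18 for the same number and -0.07 otherwise, and 18 of 20 TCDD arrays exceeded 0.1 with the vehicle array of their own day and time. The main fit has no block for the day.

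The members, the 4 pathway lists and the 4 marker lists were chosen with earlier results of these data known. Levels on every array are given for the members with the largest called rise and fall in each comparison with vehicle or untreated cells, the 2 with the smallest F test p, and Atf4, Ddit3 and Asns; of the pathway lists, up to 3 called genes at 48 h are named. Promoters are RefSeq's and are printed for those members that hold the motif. The scripts were tested on simulated data. Alternatives were the replicate block, only the arrays compared, no filter, values as deposited, a pseudocount of 1, averaging a gene's probe sets, all probe sets, leaving out each replicate, and, chosen after seeing the data, leaving out the 4 arrays standing apart. Plots were made in Python 3.11.15 (matplotlib 3.10.9).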

Additional observations from a re-analysis of the deposited data

Results flagged for a closer look

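In 110 groups of 4 arrays, those of the 10 members given array by array, the highest or lowest array lay far from the other 3 in 5 groups; chance alone marks about 1 group in 20. On the log2(signal + 16) scale, Eif2ak3 had a level of 10.62 in DMSO 36 h replicate 3, with the others from 10.91 to 10.96. Ddit4 had 9.97 in DMSO 8 h replicate 4, with the others from 9.85 to 9.86, and 12.25 in TCDD 24 h replicate 1, with the others from 11.15 to 11.31. Gpt2 had 10.67 in DMSO 36 h replicate 4, with the others from 11.04 to 11.11, and 8.37 in TCDD 12 h replicate 1, with the others from 7.33 to 7.46.

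The effect of TCDD against vehicle differed between the 5 times in 5 members by the F test of the interaction contrasts in limma, with adjusted p-values of 0.0007494 for Eif2ak3, 0.003069 for Ddit4, 0.006011 for Ppp1r15a, 0.03966 for Ddit3 and 0.04841 for Fgf21.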

How the results depend on the processing

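Over the 12 comparisons of 2 groups, 149 changes of members were called. Of these, 95 kept their call and direction in every setting run for single genes, 54 lost the call in at least 1 and 0 reversed. Of the 12 TCDD calls, 0 kept it throughout. The setting with all probe sets gave counts of members only and is not among these. The counts of called members moved by over 1.5 times as follows, and the cause was not tested. For TCDD at 8 h (1 called), the count was 3 with the replicate block, 0 without the filter, 0 over all probe sets and 0 to 1 without 1 replicate. At 12 h (4) it was 1 with only the arrays compared and 0 to 4 without 1 replicate. At 24 h (0) it was 2 with the replicate block, 1 without the 4 arrays standing apart, a setting chosen after seeing the data, and 0 to 1 without 1 replicate. At 36 h (2) it was 1 with only the arrays compared, 1 for the mean of probe sets and 1 to 2 without 1 replicate. At 48 h (5) it was 3 with a pseudocount of 1, 3 for the mean of probe sets and 1 to 3 without 1 replicate. In vehicle cells against untreated cells the count at 8 h (18) was 10 with only the arrays compared and 8 to 16 without 1 replicate, at 12 h (12) it was 7 with only the arrays compared, and at 24 h (7) it was 12 with the replicate block. Between 8 and 24 h (20) it was 13 to 18 without 1 replicate. The F test (5) gave 3 without the filter, 2 for the mean of probe sets, 3 over all probe sets, 3 without the 4 arrays and 1 to 3 without 1 replicate. The replicate block lost 0 calls. Leaving out a replicate or fitting only the arrays compared leaves fewer arrays for the spread. Dim signals limit what could be seen of Asns, Stc2, Cebpb and Vldlr.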
